A study of Arabidopsis thaliana with 27 samples.

Results

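The 51 genes described here are nuclear genes for the photosynthetic apparatus of Arabidopsis thaliana, out of 33977 genes counted. They were listed by gene identifier, with no cut on measured values, but the set was chosen with earlier results of these data known. All 51 were found in every count file. They fall into 7 classes: 6 genes for the antenna of photosystem I (LHCI, the LHCA genes), 9 for the major antenna of photosystem II (LHCII, the genes LHCB1, LHCB2 and LHCB3), 6 for minor antenna proteins (LHCB4, LHCB5, LHCB6 and LHCB7), 12 for photosystem I subunits (PSA), 10 for photosystem II subunits (PSB), 3 for electron carriers (PETC and PETE) and 5 for carbon fixation (the RBCS genes and RCA).

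RNA-seq was done on 27 plants in 9 groups of 3, with 1 plant per library. Leaf libraries came from rosette leaves of Epi 8, Epi 10 and WT, labelled as bolting plants, and the study's methods give 4 weeks for the Epi 8 and WT leaves. Root libraries came from Epi 8, Epi 24 and WT grown for 10 days on MS medium, and floral stem libraries came from Epi 8, Epi 24 and WT plants of 6 weeks. Leaf and floral stem plants were grown on peat mix at 22 °C with a 12 h day. WT was Col-0. Each epi-line is an F3 family raised from a WT plant that had been pollinated by an msh1 T-DNA mutant, and the plants of the family carry a functional MSH1, the gene for a mismatch-repair-like protein of plastids and mitochondria. Epi 8 and Epi 24 descend from 1 cross and Epi 10 from another, so each line is 1 family. Organ and age cannot be told apart in this design. Root also differed from both green organs in growth medium, and leaf differed from root and floral stem in sequencing depth. Leaf libraries also had a lower share of read pairs assigned to no gene. It was 0.681% to 0.995% in leaf, 3.93% to 6.17% in root and 4.50% to 5.94% in floral stem.

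In photosynthesis, chlorophyll-binding antenna proteins pass excitation energy to the reaction centres of the photosystems. Photosystem II draws electrons from water, plastocyanin carries them on to photosystem I, and the energy gained drives the fixation of carbon dioxide by Rubisco. Most antenna proteins, many photosystem subunits and the small subunit of Rubisco are encoded in the nucleus, in small gene families that respond to light, to the circadian clock and to the state of the plastid. Their partners encoded in the plastid could not be compared, because the 285 chloroplast and mitochondrial genes in the files had a total count of 0.

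Libraries held 48098795 to 90808615 counts in leaf, 18524351 to 20041205 in root and 18465252 to 21219383 in floral stem. The organ labels were checked with marker genes in WT. Of 7 root markers, 6 were called lower in leaf than in root, all 7 markers of aerial organs without a role in photosynthesis were called higher in leaf than in root, and all 6 markers of fibre and vessel walls were called lower in leaf than in floral stem. Flower genes were near 0 in WT floral stem, where AP1 averaged 4.32 CPM and AG 0.0395 CPM. CPM are counts relative to library size after TMM scaling, which sets the libraries of a fit to a common effective size.

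The 51 genes took a large share of all counts in green organs and almost none in root. In leaf they held 10.4%, 9.66% and 9.64% of the counts of the Epi 8 plants, 10.4%, 9.78% and 9.38% in the Epi 10 plants, and 12.1%, 11.4% and 9.67% in the WT plants. In floral stem they held 11.9%, 14.0% and 14.6% in Epi 8, 14.1%, 15.6% and 14.9% in Epi 24, and 14.7%, 15.2% and 14.6% in WT. In root they held 0.202%, 0.254% and 0.149% in Epi 8, 0.228%, 0.148% and 0.206% in Epi 24, and 0.171%, 0.237% and 0.236% in WT. The ranges of each epi-line and of WT overlapped in leaf and root. In floral stem every Epi 8 plant was below every WT plant, by little for the highest Epi 8 plant at 14.57% and the lowest WT plant at 14.62%, and the Epi 24 plants lay on both sides of the WT plants. Without the 10 genes with the highest counts of each library, floral stem shares were 5.80%, 6.76% and 7.63% in Epi 8. They were 6.78%, 6.84% and 7.07% in WT, so that the 2 groups overlapped. The 95% Wilson intervals of the shares of all counts reached at most 0.0163 percentage points to each side. They cover counting error only and not the spread between plants. PCR copies of 1 molecule cannot be recognised in these libraries, so the counting error itself may be larger. Of the 10 genes with the highest counts in a library, 6 to 9 were photosynthesis genes of the set in leaf, 8 to 10 in floral stem and 0 in root. Fewer cells with chloroplasts and less RNA per cell cannot be told apart in bulk libraries.

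**Figure D1:**
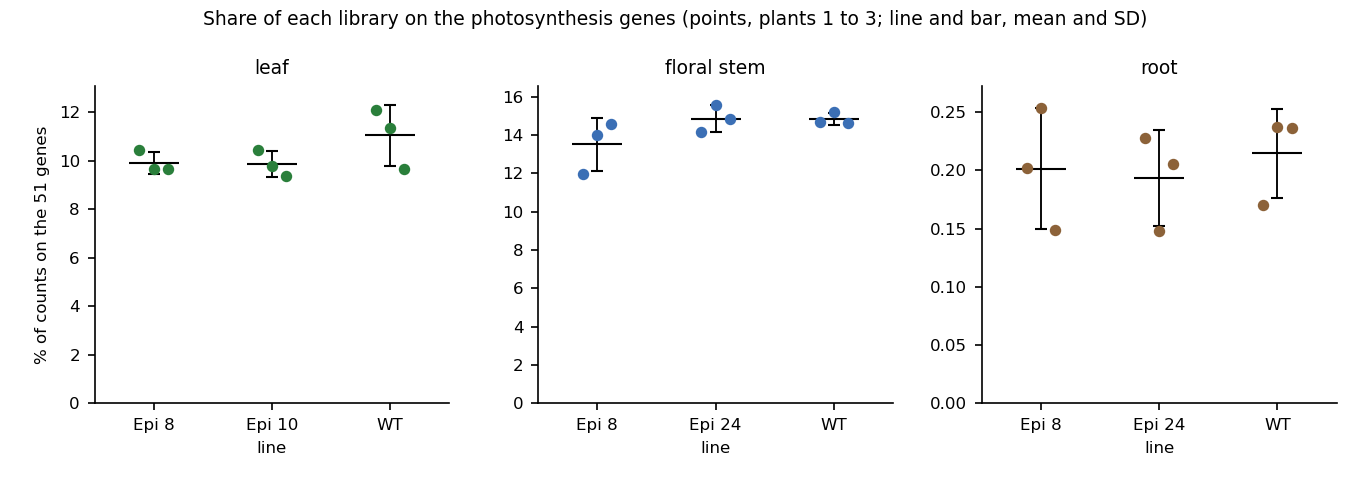
Share of each library's counts on the 51 photosynthesis genes in percent (y axis, from 0, with its own scale for each organ) by line (x axis), with 1 point per plant, the mean as a line and the SD as a bar. The root shares stay at or below 0.254%, against 9.38% or more in leaf and 11.9% or more in floral stem, and WT leaf spans 9.67% to 12.1%.

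Levels of different genes were compared per length, as TPM, the counts divided by the annotated exon length and scaled to the same sum in each library. Summed TPM of the 51 genes came to 15.2% of all transcripts in WT leaf, 0.282% in WT root and 19.2% in WT floral stem. The median gene of the set stood at 2419 TPM in leaf, 33.1 TPM in root and 2645 TPM in floral stem. Among the 100 genes with the highest TPM, 40 were members of the set in leaf, 0 in root and 41 in floral stem.

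Within the antenna classes the level spanned a wide range. LHCB1.3, 1 of 5 copies of the most abundant LHCII protein, was the highest member in WT leaf at 18617 ± 3623 TPM (SD, n = 3 here and below), and the lowest gene of the LHCII class there was LHCB2.3 at 127 ± 21.8 TPM. In WT floral stem LHCB1.5 was highest at 22339 ± 2121 TPM and LHCB2.3 was again lowest of the class at 926 ± 24.9 TPM. LHCB1.3 was within the spread of LHCB1.5 there, at 20545 ± 3170.5 TPM. Their order rests on annotated exon lengths of 1045 bases for LHCB1.5 and 1230 for LHCB1.3. Not scaled for length, LHCB1.3 averaged 17244 CPM and LHCB1.5 16013 CPM in WT floral stem, the reverse order. LHCB1.5 also led in WT root at 466.5 ± 96 TPM, where LHCB1.4 had 0.124 ± 0.166 TPM. Among LHCI genes LHCA4 was highest in each organ, with 4935 ± 507 TPM in leaf, 169 ± 40 TPM in root and 6713 ± 381 TPM in floral stem. The 2 rare LHCI genes, LHCA5 and LHCA6, whose proteins serve in the contact between photosystem I and the NADH dehydrogenase-like complex, were far below it. LHCA5 had 198 ± 36.4 TPM in leaf, 7.23 ± 2.09 TPM in root and 114 ± 9.01 TPM in floral stem. LHCA6 had 171 ± 23 TPM in leaf, 0 TPM in every WT root and 118 ± 31 TPM in floral stem, and the 2 genes did not differ beyond their spread in leaf or floral stem. In the minor antenna LHCB5 was highest in each organ, with 6154 ± 532 TPM in leaf, 101 ± 19.4 TPM in root and 5934 ± 94.2 TPM in floral stem. LHCB7, an antenna-like protein that is rare in all organs, had 17.8 ± 1.56 TPM in leaf and 31.0 ± 4.1 TPM in floral stem, the lowest of its class in both. In root the lowest of that class was LHCB4.3 at 2.72 ± 0.201 TPM.

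Photosystem subunits lay closer together than antenna genes in the green organs. In WT leaf the photosystem I subunits ran between 950.4 ± 147 TPM for PSAH1 and 5212 ± 406 TPM for PSAG, a subunit that binds LHCI. In WT floral stem the same class ran between 767 ± 73.7 TPM for PSAH1 and 3117 ± 198 TPM for PSAO, and in WT root between 8.23 ± 4.74 TPM for PSAH2 and 96.8 ± 3.53 TPM for PSAK. Photosystem II subunits ran between 1191 ± 190 TPM for PSBO2 and 4797 ± 439 TPM for PSBP1 in leaf, both proteins of the oxygen-evolving complex. In floral stem PSBY was lowest at 651 ± 77.9 TPM and PSBR highest at 7601 ± 1479 TPM, and in root PSBO2 was lowest at 14.3 ± 4.25 TPM and PSBR highest at 228 ± 41.8 TPM. Among the carriers PETE2, the main plastocyanin gene, led in leaf at 2157 ± 333 TPM and in floral stem at 1846 ± 504 TPM, against 189 ± 31.2 and 219 ± 17.6 TPM for PETE1. In root PETC, the Rieske iron-sulfur protein, had 34.2 ± 9.84 TPM, PETE2 33.9 ± 6.57 TPM and PETE1 2.11 ± 0.601 TPM. RBCS1A was the highest carbon fixation gene in all organs, with 13099 ± 2240.2 TPM in leaf, 136 ± 42 TPM in root and 18127 ± 2307 TPM in floral stem. RBCS1B was the lowest of that class in all organs, at 1445 ± 59.6 TPM in leaf, 0 TPM in every WT root and 432 ± 174 TPM in floral stem.

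**Figure D2:**
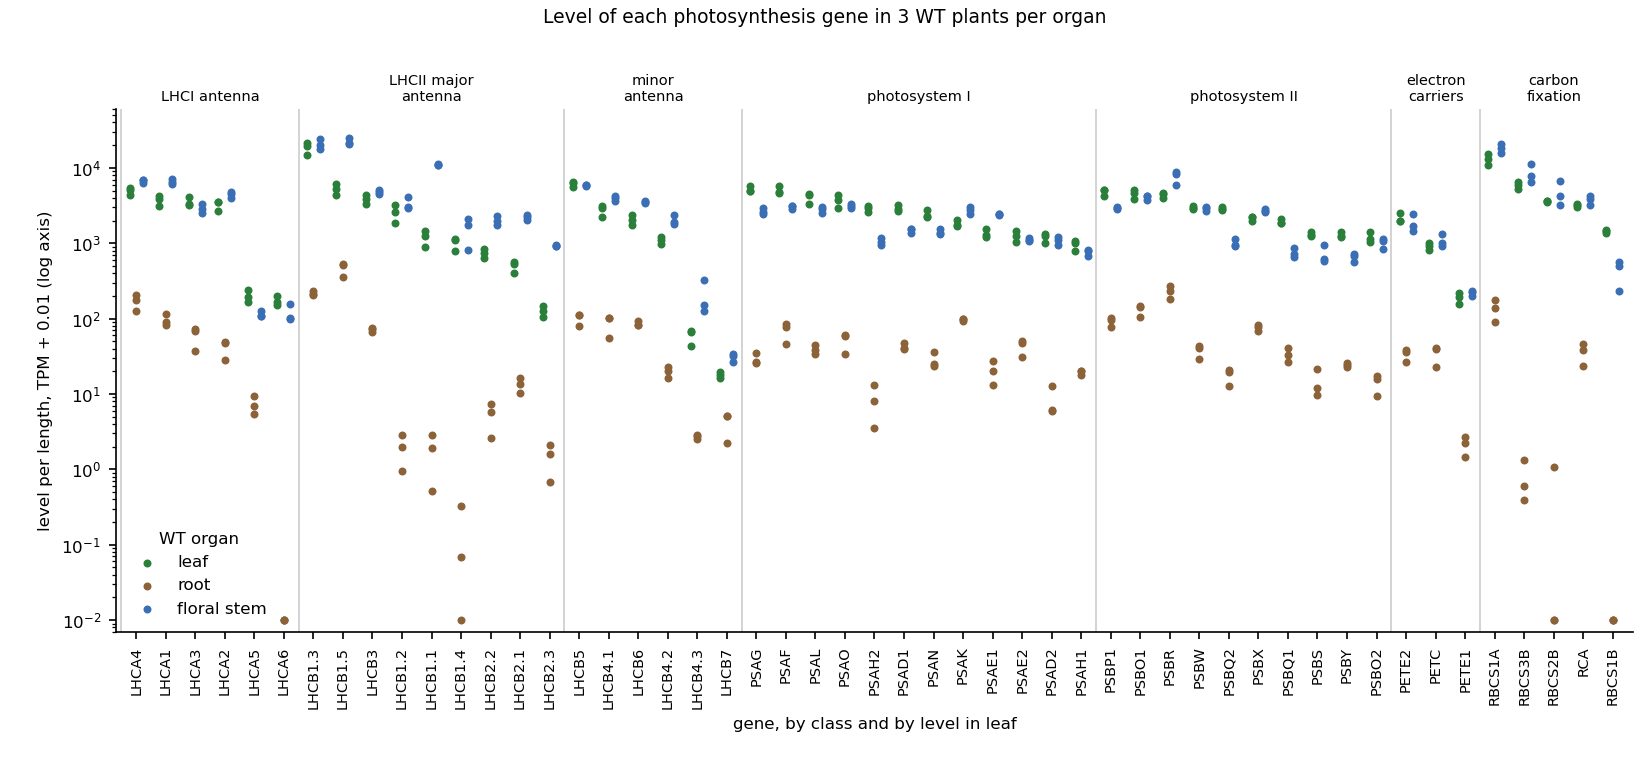
Level per length of each photosynthesis gene in TPM (y axis, log scale, 0.01 added so that 0 can be drawn) in WT leaf, root and floral stem, by gene and class (x axis), with 1 point per plant. In root, LHCA6 and RBCS1B lie at 0 in all 3 plants and LHCB1.5 is highest at 466.5 TPM on average, while the median gene has 2419 TPM in leaf and 2645 TPM in floral stem.

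Copies within a family are close in sequence, which matters for counts of uniquely mapped reads. RBCS1B, RBCS2B and RBCS3B lie side by side on chromosome 5 and RBCS1A lies on chromosome 1. The coding sequences of RBCS1B and RBCS2B were 97.3% identical and those of RBCS1A and RBCS2B 90.6% (RefSeq annotation of TAIR10.1). Coding bases 7 to 96 of the 4 RBCS genes are shown because the share of each copy is a main result below. Capitals mark the 21 positions of 90 at which the copies differ.
RBCS1A, chr1:25049154-25049243, minus strand: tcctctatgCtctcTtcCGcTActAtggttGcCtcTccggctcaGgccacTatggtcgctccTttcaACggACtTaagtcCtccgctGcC
RBCS1B, chr5:15385060-15385149, minus strand: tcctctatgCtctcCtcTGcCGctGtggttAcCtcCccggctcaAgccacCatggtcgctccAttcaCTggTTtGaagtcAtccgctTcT
RBCS2B, chr5:15381883-15381972, minus strand: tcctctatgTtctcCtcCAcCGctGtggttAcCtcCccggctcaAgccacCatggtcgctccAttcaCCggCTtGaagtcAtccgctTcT
RBCS3B, chr5:15378211-15378300, minus strand: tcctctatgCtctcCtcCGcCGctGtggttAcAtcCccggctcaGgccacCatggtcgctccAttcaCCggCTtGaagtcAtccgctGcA

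The 3 LHCB1 copies that lie together on chromosome 1 were also close, with 96.1% identity between LHCB1.1 and LHCB1.3 and 96.4% between LHCB1.2 and LHCB1.3. Their first 90 coding bases are shown in the same way, with capitals at the 9 positions that differ.
LHCB1.1, chr1:10475803-10475892, minus strand: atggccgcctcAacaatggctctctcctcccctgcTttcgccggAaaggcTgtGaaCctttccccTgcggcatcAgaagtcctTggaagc
LHCB1.2, chr1:10473157-10473246, minus strand: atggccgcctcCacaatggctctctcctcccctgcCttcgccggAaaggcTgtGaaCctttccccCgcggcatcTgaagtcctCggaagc
LHCB1.3, chr1:10478071-10478160, plus strand: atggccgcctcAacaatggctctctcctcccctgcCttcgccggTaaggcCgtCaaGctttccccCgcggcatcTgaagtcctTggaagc

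Read pairs from such copies can be told apart only where they cover a differing base. Of all windows of 150 coding bases, the read length, none was shared exactly between 2 members except for RBCS1B and RBCS3B. Of the RBCS1B windows 81 of 397 (20.4%) also occurred in RBCS3B, and 81 of 412 RBCS3B windows (19.7%) occurred in RBCS1B, so the counts of these 2 genes are uncertain where the unique-mapping rule removed reads. In addition, 18 members overlap another annotated gene, and the strand setting of the counting is not given in the sources used here.

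The share of each copy within its family differed by organ. Shares are given per length over all 9 plants of an organ, as lowest, median and highest. They depend on the annotated exon length, which is 1894 bases for RBCS1B and 935 for RBCS2B, with 546 coding bases in each. RBCS1A held 50.1%, 57.1% and 58.4% of the RBCS transcripts in leaf, 98.3%, 99.2% and 99.7% in root, and 52.8%, 58.3% and 61.9% in floral stem. RBCS1B held 3.69%, 6.24% and 6.49% in leaf, 0%, 0% and 0.237% in root, and 0.868%, 1.46% and 2.16% in floral stem. The leaf range of RBCS1B lay above its ranges in root and floral stem, and those 2 did not overlap either. Medians for RBCS2B were 13.9% in leaf, 0% in root and 14.6% in floral stem, and for RBCS3B 24.2%, 0.537% and 26.0% in the same order of organs.

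The LHCB1 family was led by a different copy in leaf than in root. LHCB1.3 held 63.8%, 65.0% and 67.5% of the family in leaf, 24.4%, 30.6% and 43.0% in root, and 32.7%, 35.4% and 38.4% in floral stem. LHCB1.5 held 17.6%, 19.3% and 20.6% in leaf, 56.4%, 68.8% and 75.0% in root, and 32.7%, 39.5% and 42.3% in floral stem. For LHCB1.5 the 3 organs did not overlap. LHCB1.1 held 2.40%, 3.46% and 4.34% in leaf, 0.0892%, 0.177% and 0.374% in root, and 14.1%, 17.8% and 20.4% in floral stem, again with no overlap. LHCB1.2 had medians of 8.32% in leaf, 0.275% in root and 5.33% in floral stem, and LHCB1.4 had 3.77%, 0% and 2.86%.

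In the LHCB2 family, LHCB2.2 led in leaf with a median of 54.0%, LHCB2.1 led in root with 70.8%, and in floral stem the 2 stood at 39.8% and 42.2%. LHCB2.3 held 9.13%, 9.66% and 10.0% in leaf, against 13.7%, 18.4% and 20.2% in floral stem. PSAE1, a stromal subunit at the ferredoxin docking site of photosystem I, had medians of 55.8% of the pair in leaf, 29.2% in root and 68.5% in floral stem, where every floral stem plant (67.8% or more) was above every leaf plant (66.5% or less). PSAD1, its neighbour at that site, had 71.2%, 85.3% and 58.8%. PSAH1, part of the site where LHCII docks on photosystem I, had 23.1%, 71.0% and 41.3%. Per length PSAH2 thus led in the green organs and PSAH1 in root. This order rests on annotated exon lengths of 1300 bases for PSAH1 and 702 for PSAH2. Not scaled for length, PSAH1 averaged 682 CPM and PSAH2 504 CPM in WT floral stem, the reverse order. LHCB4.1 had medians of 70.5% in leaf, 81.2% in root and 63.3% in floral stem. PSBO1, the main stabiliser of the manganese cluster, had 80.5%, 90.1% and 80.6%. PSBQ1 had 40.8%, 66.8% and 43.1%, and PETE2 had 91.4%, 96.2% and 89.2%.

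WT organs were compared in 1 edgeR fit of the 9 WT libraries over 21369 genes, with a call at a Benjamini-Hochberg adjusted p under 0.05 and an absolute log2 fold change of at least 0.5. CPM in the organ comparisons come from this fit and differ in scale from those of the line comparisons. All 51 genes were called higher in WT leaf than in WT root, against 30.5% of all tested genes called higher, and all 51 were called lower in WT root than in WT floral stem, against 29.4% of all tested genes called lower. The median log2 fold change of the 51 was 6.37 for leaf over root and −6.38 for root over floral stem. Setting the 2 genes at 0 in root to their bound could not move these medians, because bound and fitted value lie on the same side of them. The median of all genes for leaf over root was −0.13.

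LHCA6 and RBCS1B had 0 counts in all 3 WT roots. Against a floor of 3 counts over the group, 0.0443 CPM, LHCA6 was at least 3018-fold higher in leaf than in root and at least 2104-fold higher in floral stem. RBCS1B was at least 41512-fold higher in leaf than in root and at least 12389-fold higher in floral stem. A further 2 genes had few counts in root: RBCS2B had 0, 13 and 0 counts in WT root and LHCB1.4 had 0, 1 and 5. RBCS2B, with 0, 0.553 and 0 CPM in WT root against 2608, 4036 and 2228 CPM in WT floral stem, had a fitted log2 fold change of 13.51 for leaf over root and −13.90 for root over floral stem.

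The smallest differences between leaf and root were those of LHCB7, LHCB1.5 and PSAK. LHCB7 had 13.6, 14.7 and 15.3 CPM in WT leaf, against 1.495, 3.40 and 3.44 CPM in WT root, a log2 fold change of 2.38 ± 0.29 (SE, edgeR adjusted p = 3.65e-05). LHCB1.5 had 4421, 3697 and 2939 CPM in WT leaf, against 205, 305 and 297 CPM in WT root, a log2 fold change of 3.78 ± 0.29 (adjusted p = 1.24e-06). Neither pair of groups overlapped. PSAK had a log2 fold change of 4.53 ± 0.20. Between root and floral stem the smallest were LHCB7 at −3.21, LHCA5 at −4.28 and PSBQ1 at −4.80.

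Other genes of the pathway followed the organs as well, counted over lists drawn up for this report. For leaf over root, 15 of 15 Calvin cycle genes, 14 of 14 chlorophyll synthesis genes and 19 of 19 other thylakoid genes were called higher. Of 10 genes for LHC-like proteins and LHC insertion 8 were called higher and 2 lower, and of 14 regulators of photosynthesis genes 12 were called higher and 1 lower. For root over floral stem all 15, 14 and 19 genes of the first 3 lists were called lower. Of all tested genes 30.5% were called higher in leaf than in root and 37.4% lower, and 29.4% were called lower in root than in floral stem.

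WT leaf and WT floral stem are both green, and there the classes parted. Of the 51 genes 27 were called (60.1% of all tested genes), 14 higher in leaf (29.1% of all genes) and 13 lower in leaf (31.0%). The share called was thus near that of all genes, and the median log2 fold change was −0.23, against 0.00 for all genes. Leaving out 1 WT plant at a time gave 22 to 26 calls. By class, the LHCII major antenna had 0 of 9 called higher and 5 called lower, with all 9 values below 0 and a median of −1.47. The minor antenna had 0 of 6 higher and 4 lower, and the LHCI antenna 2 higher and 1 lower of 6. Photosystem I had 6 higher and 2 lower of 12, and photosystem II 5 higher and 1 lower of 10. The 3 electron carriers had no call by edgeR and 0 at an unadjusted p under 0.05, and of the 5 carbon fixation genes 1 was called higher. The groups did not overlap for 14 genes higher in leaf and 18 lower in leaf, against 35.2% and 33.7% of all genes.

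**Figure D3:**
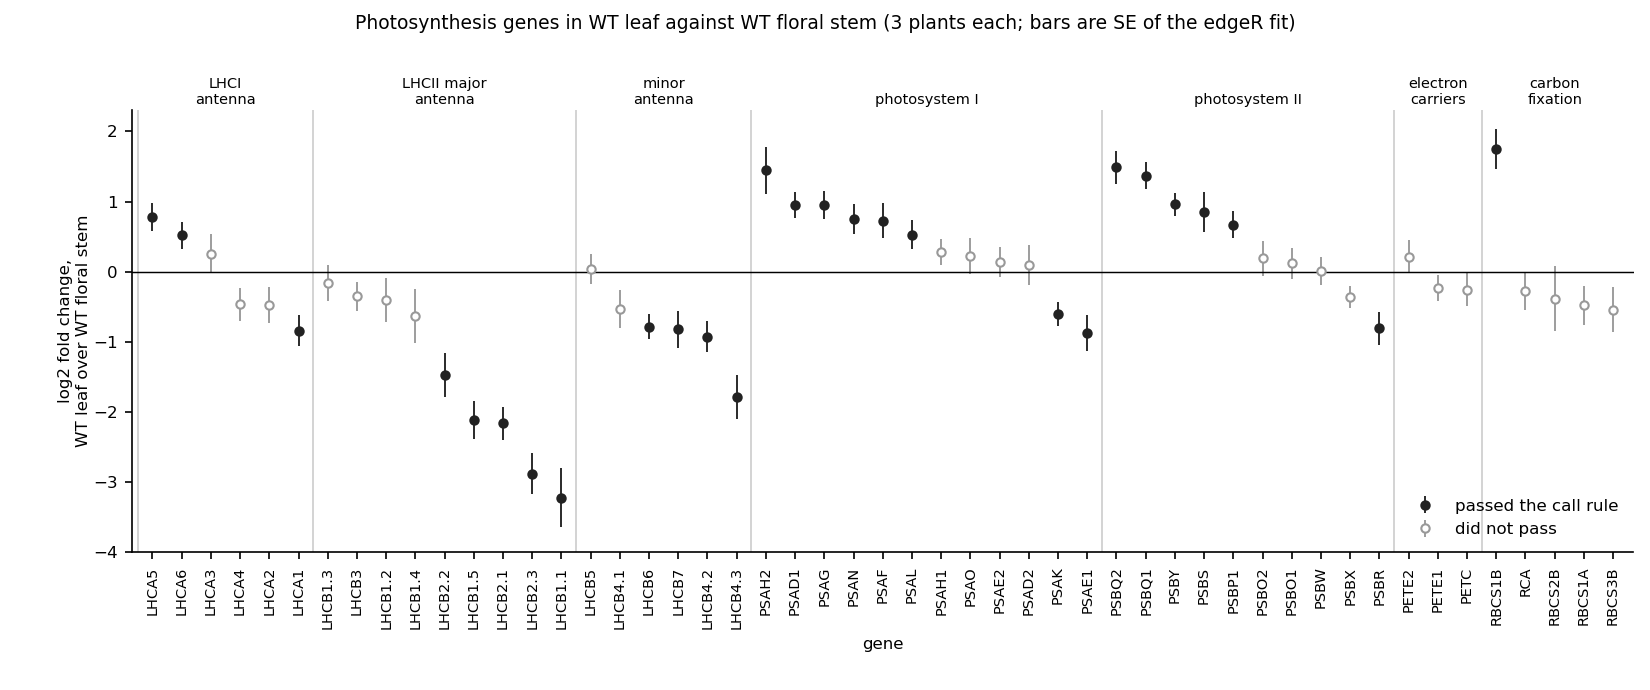
Log2 fold change of WT leaf over WT floral stem (y axis) for each photosynthesis gene by class (x axis), with the SE of the edgeR fit as a bar and filled points for genes that were called. All 9 LHCII genes lie below 0, down to LHCB1.1 at −3.22, while RBCS1B is highest at 1.74.

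LHCB1.1 (AT1G29920) differed most. It had 1320, 1093 and 753 CPM in WT leaf, against 9673, 9409 and 10487 CPM in WT floral stem. The groups were far apart, and the log2 fold change was −3.22 ± 0.42 (SE, edgeR adjusted p = 0.000102). LHCB2.3 (AT3G27690) had 150.4, 127 and 99.8 CPM in leaf, against 915, 870.5 and 991 CPM in floral stem, a log2 fold change of −2.88 ± 0.29 (adjusted p = 1.97e-05). LHCB2.1 (AT2G05100) had 548, 499 and 373 CPM in leaf, against 1860.5, 2042 and 2460.5 CPM in floral stem, a log2 fold change of −2.16 ± 0.23 (adjusted p = 2.99e-05). The other called LHCII genes were LHCB1.5 at −2.12 ± 0.27 and LHCB2.2 at −1.47 ± 0.31. The copy that leads the family in leaf was not called: LHCB1.3 averaged 15437 ± 3443 CPM in leaf and 17244 ± 2729.9 CPM in floral stem, and its groups overlapped. LHCB1.2 at −0.41 and LHCB1.4 at −0.63 were not called either.

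In the minor antenna LHCB4.3, a form of the linker protein between LHCII and photosystem II, had 43.5, 66.0 and 63.1 CPM in leaf, against 121, 312 and 164 CPM in floral stem, with no overlap and a log2 fold change of −1.79 ± 0.31 (adjusted p = 0.000662). LHCB4.2 was called lower at −0.93 ± 0.22, LHCB6 at −0.78 ± 0.18 and LHCB7 at −0.82 ± 0.27, and LHCB4.1 at −0.53 ± 0.28 was not called (adjusted p = 0.118). Among LHCI genes the rare LHCA5 and LHCA6 were higher in leaf at 0.78 ± 0.21 and 0.52 ± 0.19, and LHCA1 was lower at −0.84 ± 0.22.

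Of the 22 photosystem subunits 11 were called higher in leaf and 3 lower. PSBQ2 (AT4G05180), of the oxygen-evolving complex, had 2686, 2407 and 2245 CPM in leaf, against 798, 763 and 1059 CPM in floral stem, a log2 fold change of 1.49 ± 0.23 (adjusted p = 0.000301). PSAH2 (AT1G52230) had 1535, 1381 and 1199.6 CPM in leaf, against 479.6, 542 and 490.4 CPM in floral stem, a log2 fold change of 1.44 ± 0.33 (adjusted p = 0.00354). Both genes had leaf and floral stem values that did not overlap. PSBQ1 was higher at 1.37 ± 0.19, PSAD1 at 0.95 ± 0.18, and PSAE1 was lower at −0.88 ± 0.25. Their partner copies PSAD2 at 0.10 ± 0.29, PSAE2 at 0.13 ± 0.21 and PSAH1 at 0.29 ± 0.18 were not called, nor were PSBO1 at 0.12 ± 0.22 and PSBO2 at 0.19 ± 0.25. PSBY at 0.96, PSAG at 0.95, PSBS at 0.86, PSAN at 0.75, PSAF at 0.73, PSBP1 at 0.67 and PSAL at 0.53 made up the rest of the higher calls in these classes. PSBR at −0.81 and PSAK at −0.60 made up the rest of the lower ones.

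RBCS1B (AT5G38430) was the member with the largest rise in leaf. It had 1958, 1764 and 1793 CPM in WT leaf, against 616.5, 699 and 330.2 CPM in WT floral stem, and the groups did not overlap. The log2 fold change was 1.74 ± 0.28 (SE, edgeR adjusted p = 0.000874). RBCS1A at −0.48 ± 0.28, RBCS2B at −0.39 ± 0.47, RBCS3B at −0.54 ± 0.32 and RCA at −0.28 ± 0.26 were not called, and neither were PETE1 at −0.23 ± 0.18 and PETE2 at 0.21 ± 0.23.

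The 250 bases before the annotated start of these genes were read from the TAIR10.1 genome. They are shown for the genes at each end of this comparison whose stretch holds no annotated exon, which left out PSAH2 and PSBQ1. Capitals mark the letters CACGTG (G-box), GATAAG (I-box), CCAATC (named for GLK factors) and AAAAATCT (named for CCA1) on either strand.
RBCS1B, chr5:15385321-15385570, minus strand: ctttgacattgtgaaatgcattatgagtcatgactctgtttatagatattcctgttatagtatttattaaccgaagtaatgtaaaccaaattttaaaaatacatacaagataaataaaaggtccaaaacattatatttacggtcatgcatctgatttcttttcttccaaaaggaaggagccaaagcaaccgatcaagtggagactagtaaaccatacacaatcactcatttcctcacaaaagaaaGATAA
PSBQ2, chr4:2673244-2673493, minus strand: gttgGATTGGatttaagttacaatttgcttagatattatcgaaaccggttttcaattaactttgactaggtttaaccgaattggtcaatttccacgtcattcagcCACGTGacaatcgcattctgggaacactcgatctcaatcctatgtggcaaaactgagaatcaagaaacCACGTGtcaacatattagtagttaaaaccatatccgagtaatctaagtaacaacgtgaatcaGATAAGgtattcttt
LHCB1.1, chr1:10475970-10476219, minus strand: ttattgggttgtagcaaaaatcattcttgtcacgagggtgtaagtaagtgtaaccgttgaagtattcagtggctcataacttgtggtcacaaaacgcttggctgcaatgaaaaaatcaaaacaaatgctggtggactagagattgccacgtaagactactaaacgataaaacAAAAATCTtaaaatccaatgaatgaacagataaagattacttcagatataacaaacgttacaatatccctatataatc
LHCB2.3, chr3:10255656-10255905, plus strand: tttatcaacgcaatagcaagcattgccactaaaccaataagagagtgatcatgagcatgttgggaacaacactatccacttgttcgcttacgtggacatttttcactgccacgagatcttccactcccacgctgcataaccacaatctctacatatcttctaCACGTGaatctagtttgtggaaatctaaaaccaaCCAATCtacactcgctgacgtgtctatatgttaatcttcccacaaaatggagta
LHCB2.1, chr2:1824481-1824730, minus strand: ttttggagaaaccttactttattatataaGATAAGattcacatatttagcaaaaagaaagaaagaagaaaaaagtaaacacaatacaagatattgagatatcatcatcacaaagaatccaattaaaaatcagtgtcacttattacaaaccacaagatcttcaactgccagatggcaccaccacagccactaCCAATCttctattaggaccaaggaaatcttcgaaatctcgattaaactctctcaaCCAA

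PSBQ2 had 2 G-boxes, 1 I-box and 1 CCAATC, LHCB2.3 had 1 G-box and 1 CCAATC, and LHCB2.1 had 1 I-box and 2 CCAATC, of which the second crosses the start site and is printed only in part. LHCB1.1 had 1 AAAAATCT, and the overlapping I-boxes of RBCS1B lie at its start site and are likewise cut off. In windows of 250 bases before to 50 after the start, a G-box occurred for 16 of 51 members (31.4%) against 7.68% of 27443 promoters, and an I-box for 23 members (45.1%) against 14.6%. CCAATC occurred for 18 members (35.3%) against 12.3%, and AAAAATCT for 6 members (11.8%) against 7.88%. The evening element AAAATATCT occurred for 1 member (1.96%) against 2.82%. These matches are descriptions of letters, and a missing match says only that these letters are not in this window.

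For leaf over floral stem, of 15 Calvin cycle genes 11 were called higher and 1 lower, led by RPI3 at 2.11 and TKL1 at 1.67. Of 14 chlorophyll synthesis genes 7 were called higher and 3 lower, with CHLI2 at 2.91 and HEMA1, the entry enzyme of the pathway, at −2.04. Of 19 other thylakoid genes 7 were called higher and 4 lower, and of 14 regulators 6 higher and 4 lower, GLK1 at 1.90 and GLK2 at −0.72 on opposite sides. Beside these list counts, 29.1% of all tested genes were called higher in leaf and 31.0% lower. The 10 clock genes parted by the time of day at which they are known to peak. The morning genes CCA1 and LHY averaged 2.33 and 2.69 CPM in leaf, against 65.0 and 18.2 CPM in floral stem, and the evening genes ELF4 and TOC1 averaged 105 and 289 CPM in leaf, against 1.72 and 99.3 CPM in floral stem. ELIP1, an early light-induced protein, had 0.137, 0.322 and 0.281 CPM in WT leaf, against 11.7, 109 and 3.93 CPM in WT floral stem (each from the fit of its organ), so that plant 2 carried most of the floral stem mean. The summed level of the wall markers was 35.9 to 51.8 CPM in leaf and 2777 to 9265 CPM in floral stem. The part of clock phase, light and vessel tissue in the differences of the 51 genes was not tested.

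Epi-lines were compared with WT within each organ, on the 9 libraries of that organ. No photosynthesis gene was called by edgeR's quasi-likelihood test in any of the 9 line comparisons, which include Epi 8 against the other epi-line of each organ. The largest background was that of Epi 8 leaf against WT leaf, where 0.953% of 20052 tested genes were called. In Epi 10 leaf against WT leaf and in Epi 8 leaf against Epi 10 leaf 0.0% were called. Both epi-lines of an organ were set against the same 3 WT plants, so their values stand side by side and are not independent.

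Most of the 51 genes had lower values in both epi-line leaves than in WT leaf. In Epi 8 leaf 44 of 51 log2 fold changes were below 0, with a median of −0.23, against 49.0% of all genes below 0 and a median of 0.01. At an unadjusted p under 0.05 there were 19 lower genes and 1 higher gene, against 20.3% of all genes in either direction and 10.7% lower, and the smallest adjusted p of a member was 0.0546. By edgeR's likelihood ratio test and by DESeq2 6 members were called, against 3.18% and 2.89% of all genes. The plants did not overlap for 16 lower genes and 1 higher gene, against 13.3% and 12.4% of all genes. In Epi 10 leaf 48 of 51 were below 0, with a median of −0.19, against 52.6% of all genes and a median of −0.01. Here 11 genes had an unadjusted p under 0.05, all lower, against 7.03% of all genes (4.06% lower), the smallest adjusted p was 0.683, and the likelihood ratio test and DESeq2 each called 1 member, against 0.0848% and 0.0854% of all genes. Plants did not overlap for 10 lower genes and 0 higher genes, against 7.44% and 6.34% of all genes. Between Epi 8 leaf and Epi 10 leaf 26 of 51 were below 0 with a median of −0.00118, and 6 genes had an unadjusted p under 0.05 (7.08% of all genes), 3 in each direction. Plants did not overlap for 6 lower genes, against 6.94% of all genes.

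WT leaf plant 3 was the lowest of its group for 43 of the 51 genes, by a median of −0.24 on the log2 scale against the group median. Without it 45 genes were below 0 in Epi 8 leaf with a median of −0.33, and 49 in Epi 10 leaf with a median of −0.29. Without WT leaf plant 1 the counts were 39 and 42 and the medians −0.17 and −0.12, the smallest of the sets without 1 plant. Epi 10 leaf plant 3 was the lowest of its group for 41 genes, and without it the Epi 10 median was −0.13.

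PETE2 (AT1G20340), the main plastocyanin gene, had the smallest p in Epi 8 leaf. It had 1188, 1106 and 1239 CPM in Epi 8 leaf and 1475, 1461 and 1290 CPM in Epi 10 leaf, against 1638, 2086 and 1555 CPM in WT leaf. Every WT plant was above every epi-line plant. The log2 fold change over WT was −0.58 ± 0.12 in Epi 8 (SE, edgeR adjusted p = 0.0546) and −0.32 ± 0.12 in Epi 10 (adjusted p = 0.683). PETE1, the minor copy, was at −0.12 ± 0.15 and −0.32 ± 0.15.

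PSAN, a lumenal subunit of photosystem I, had the next smallest p. It had 1195, 980 and 966 CPM in Epi 8 leaf and 1363, 1117 and 1195 CPM in Epi 10 leaf, against 1716, 1376 and 1383 CPM in WT leaf. All WT plants were above all epi-line plants, WT plant 2 by little. The log2 fold change was −0.51 ± 0.13 in Epi 8 (adjusted p = 0.0854) and −0.28 ± 0.13 in Epi 10.

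A further 3 genes are named because they were called by the other tests, a choice made after their values were seen. LHCB3, the LHCII protein that links trimers to photosystem II, had 1922, 1504 and 2122 CPM in Epi 8 leaf and 2703, 2334 and 2067 CPM in Epi 10 leaf, against 3351, 2895 and 2398 CPM in WT leaf. Epi 8 lay wholly below WT and Epi 10 overlapped with WT, and the log2 fold change in Epi 8 was −0.64 ± 0.16 (edgeR adjusted p = 0.0854). PSAO, a photosystem I subunit near its LHCII docking site, had 1396, 1166 and 1255 CPM in Epi 8 leaf and 1430.0, 1376 and 1235 CPM in Epi 10 leaf, against 1896, 2196 and 1413 CPM in WT leaf. Epi 8 lay just below WT plant 3 and Epi 10 overlapped with it, and the log2 fold change in Epi 8 was −0.53 ± 0.15 (adjusted p = 0.108). PSBX, a small photosystem II subunit, had 602, 564 and 773.5 CPM in Epi 8 leaf and 999, 792 and 868 CPM in Epi 10 leaf, against 994.5, 983 and 837 CPM in WT leaf. Only Epi 8 lay below WT, with a log2 fold change of −0.54 ± 0.14 (adjusted p = 0.0887).

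RBCS1B had 1104, 901 and 1370.0 CPM in Epi 8 leaf and 1817, 1635 and 1468 CPM in Epi 10 leaf, against 1752, 1593 and 1626 CPM in WT leaf. Epi 8 was below all plants of the other 2 groups, which overlapped. Its log2 fold change was −0.56 ± 0.15 for Epi 8 over WT (edgeR adjusted p = 0.0897), −0.54 for Epi 8 over Epi 10 (adjusted p = 0.571) and −0.02 ± 0.15 for Epi 10 over WT. RBCS2B had 1678, 1664 and 1633 CPM in Epi 8 leaf and 1929, 1913 and 1841 CPM in Epi 10 leaf, against 2041, 2067 and 2007 CPM in WT leaf. The 3 groups did not overlap, and the log2 fold change in Epi 8 was −0.30 ± 0.08 (adjusted p = 0.102). RBCS1A at −0.08 ± 0.15 and RBCS3B at −0.23 ± 0.12 were smaller in Epi 8, and RCA, the Rubisco activase, was at −0.25 ± 0.11.

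As a share of its family RBCS1B stood at 4.38%, 3.69% and 5.75% in Epi 8 leaf and 6.31%, 6.49% and 6.27% in Epi 10 leaf, against 5.55%, 6.33% and 6.24% in WT leaf. In floral stem it stood at 2.15%, 2.05% and 2.16% in Epi 8 and 1.06%, 1.29% and 1.32% in Epi 24, against 1.70%, 1.46% and 0.868% in WT. Epi 8 was thus the lowest line on average in leaf, with 1 plant inside the WT range, and above every other plant in floral stem. These shares were picked after they were seen and carry no test.

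The LHCB2 copies were low in both epi-lines. LHCB2.2 had 412, 353 and 330.5 CPM in Epi 8 leaf and 369, 327 and 292 CPM in Epi 10 leaf, against 591, 515 and 428 CPM in WT leaf, so that no epi-line plant reached the WT plants. The log2 fold change was −0.49 ± 0.14 in Epi 8 (edgeR adjusted p = 0.108) and −0.64 ± 0.14 in Epi 10 (adjusted p = 0.683). LHCB2.1 had 318, 294 and 356 CPM in Epi 8 leaf and 299, 304 and 255.5 CPM in Epi 10 leaf, against 490.5, 451 and 338 CPM in WT leaf. Epi 8 overlapped with WT plant 3 and Epi 10 did not, with log2 fold changes of −0.40 ± 0.14 and −0.57 ± 0.14. LHCB2.3 was at −0.39 ± 0.14 in Epi 8 and −0.51 ± 0.14 in Epi 10. The LHCB1 copies spread widely. LHCB1.1 was at −0.60 ± 0.25 in Epi 8 and −0.59 ± 0.25 in Epi 10, and LHCB1.2 at −0.33 ± 0.17 and −0.29 ± 0.17. LHCB1.3 was at −0.06 ± 0.15 in Epi 8 and −0.17 ± 0.15 in Epi 10, LHCB1.5 at 0.03 ± 0.16 and −0.07 ± 0.16, and LHCB1.4 at 0.16 ± 0.20 and −0.05 ± 0.20. None was called, and differences between copies were not tested.

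PSBY was the 1 higher gene in Epi 8 leaf at an unadjusted p under 0.05 and is named for that reason. It had 1428, 1193 and 1067 CPM in Epi 8 leaf and 1086, 945 and 829 CPM in Epi 10 leaf, against 1046, 924 and 881 CPM in WT leaf. Epi 8 lay above WT, by little for plant 3, at a log2 fold change of 0.37 ± 0.14 (edgeR adjusted p = 0.177). The other families, none of them called, stood in Epi 8 leaf with PSAD1 at 0.08 ± 0.14, PSAD2 at 0.19 ± 0.18, PSAE1 at 0.28 ± 0.16, PSAE2 at −0.32 ± 0.15, PSAH1 at −0.26 ± 0.13, PSAH2 at −0.06 ± 0.12, PSBO1 at −0.17 ± 0.14, PSBO2 at −0.32 ± 0.15, PSBQ1 at −0.21 ± 0.11, PSBQ2 at −0.21 ± 0.10 and LHCB7 at −0.11 ± 0.09. LHCA5 was at −0.31 ± 0.14, LHCA6 at −0.28 ± 0.11, LHCB4.1 at −0.20 ± 0.16, LHCB4.2 at −0.17 ± 0.12 and LHCB4.3 at −0.19 ± 0.26.

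**Figure D4:**
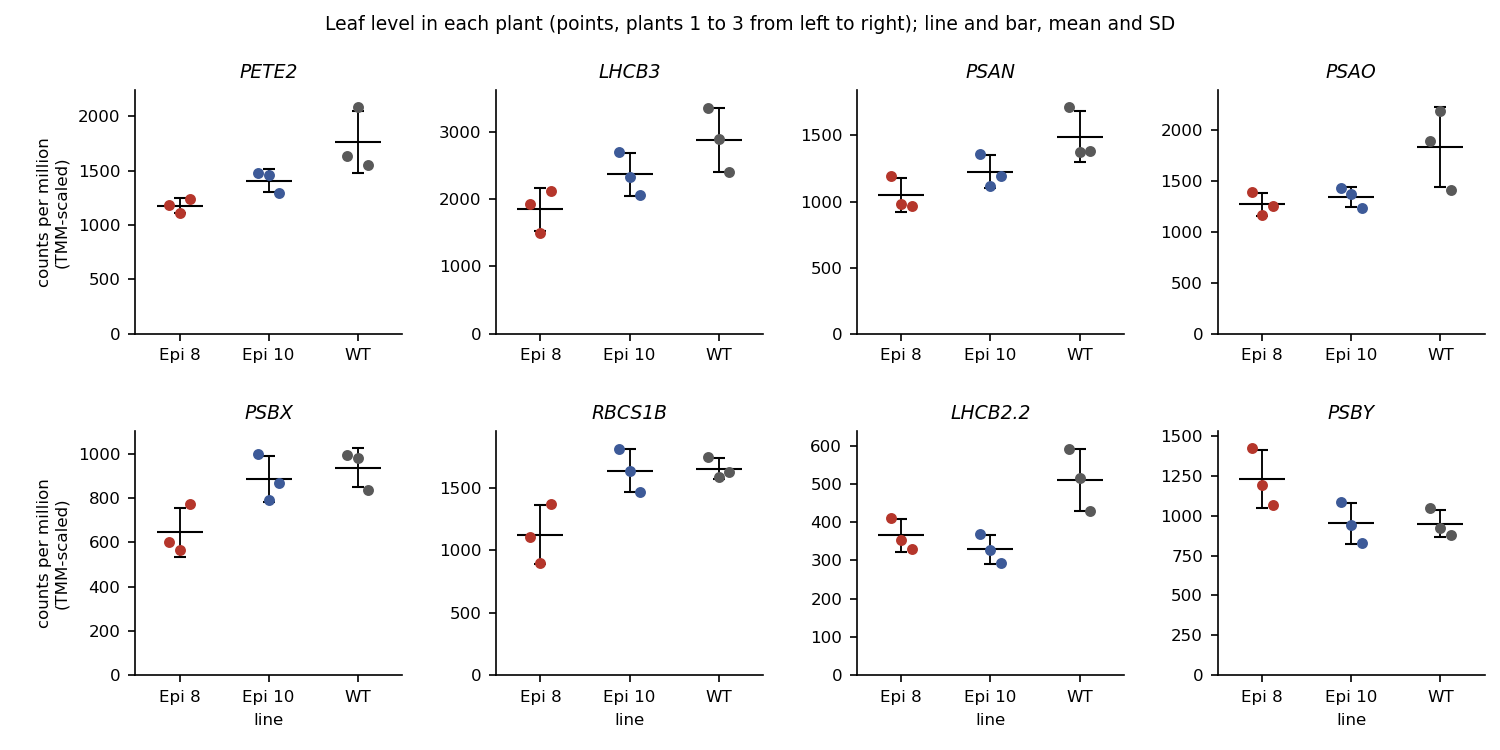
CPM (y axis, from 0) of 8 photosynthesis genes in the leaves of each Epi 8, Epi 10 and WT plant (x axis), with 1 point per plant, the mean as a line and the SD as a bar. PETE2, PSAN and LHCB2.2 are lower in all epi-line plants than in all WT plants, RBCS1B and PSBX are lower in Epi 8 alone, and PSBY is higher in Epi 8 (1067 to 1428 CPM) than in WT (881 to 1046 CPM).

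By class, the median log2 fold changes in leaf were −0.25 in Epi 8 and −0.22 in Epi 10 for LHCI, −0.39 and −0.29 for LHCII, −0.19 and −0.18 for the minor antenna, −0.17 and −0.27 for photosystem I, −0.21 and −0.15 for photosystem II, −0.48 and −0.32 for the carriers, and −0.25 and −0.11 for carbon fixation. All 7 class medians were below 0 in both lines, against 0.01 and −0.01 for all genes. No test was made over a class.

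Genes around the apparatus were counted in the same way. In Epi 8 leaf 1 of 14 chlorophyll synthesis genes was called lower, CHLI2 of the magnesium chelatase at −0.58 (edgeR adjusted p = 0.0361), and 14 of 14 were below 0 with a median of −0.27. Of 19 other thylakoid genes 1 was called lower, PETM at −0.51 (adjusted p = 0.0498), a small subunit of the cytochrome complex that feeds plastocyanin. Of 9 tested LHC-like and insertion genes 1 was called lower, OHP1 at −0.78 (adjusted p = 0.0277), which helps to assemble photosystem II. Without Epi 8 leaf plant 1 or WT leaf plant 2 no gene at all was called in this comparison, these 3 included. No Calvin cycle gene was called by edgeR, and 12 of 15 were below 0 in Epi 8 and 12 of 15 in Epi 10. Of all tested genes 0.773% were called lower in Epi 8 leaf, and 49.0% were below 0 there and 52.6% in Epi 10 leaf. In Epi 8 leaf 4 of 15 Calvin cycle genes had an unadjusted p under 0.05, against 20.3% of all genes. The same held for 7 of 14 chlorophyll synthesis, 9 of 19 other thylakoid and 3 of 9 LHC-like and insertion genes. It held for 3 of 10 clock genes, 1 of 14 regulators and 1 of 9 senescence genes. In Epi 10 leaf no gene of these lists was called, and 14 of 14 chlorophyll synthesis genes were below 0 with a median of −0.16. Of 10 clock genes 9 were above 0 in Epi 8 leaf with a median of 0.19, against 5 above 0 in Epi 10 leaf, and of 9 senescence and chlorophyll breakdown genes 7 were above 0 in each, with medians of 0.27 and 0.35. The summed level of the senescence list was 438 to 516 CPM in Epi 8 leaf and 510.2 to 522 CPM in Epi 10 leaf, against 492 to 493 CPM in WT leaf. The part of these genes in the lower values of the 51 was not tested.

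In Epi 8 floral stem 40 of 51 genes were below 0 with a median of −0.15, against 48.7% of all genes and a median of 0.01. No member was called by edgeR's quasi-likelihood test (0.0255% of all genes), its likelihood ratio test (1.43%) or DESeq2 (1.45%). At an unadjusted p under 0.05 there was 1 lower gene (8.82% of all genes, 5.08% lower). The plants did not overlap for 4 lower genes and 0 higher genes, against 6.36% and 6.07% of all genes. In Epi 24 floral stem 36 of 51 were above 0 with a median of 0.13, while 50.6% of all genes were below 0. None was called by the quasi-likelihood test (0.0% of all genes), the likelihood ratio test (0.0612%) or DESeq2 (0.081%). None had an unadjusted p under 0.05 (6.11% of all genes, 3.35% lower). There 1 lower and 1 higher gene did not overlap with WT, against 5.02% and 4.88% of all genes, 9.9% in all. For Epi 8 over Epi 24, 46 of 51 were below 0 with a median of −0.26, against 48.5% of all genes. None was called by the quasi-likelihood test (0.0153% of all genes), the likelihood ratio test (2.57%) or DESeq2 (2.79%). An unadjusted p under 0.05 was found for 5 members, all lower (16.8% of all genes, 8.49% lower). The plants did not overlap for 13 lower genes and 1 higher gene in that comparison, against 13.6% and 12.6% of all genes. Epi 8 floral stem plant 1 was the lowest of its group for 42 genes and plant 3 the highest for 40. Without 1 plant at a time, 30 to 48 genes were below 0 for Epi 8 over WT and 10 to 18 for Epi 24 over WT.

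LHCB4.3 had the smallest p in Epi 8 floral stem. It had 87.6, 75.1 and 119.9 CPM in Epi 8 and 166, 96.9 and 89.7 CPM in Epi 24, against 115, 294 and 155 CPM in WT. WT plant 2 stood far above the rest, and Epi 8 overlapped with WT. The log2 fold change was −0.998 in Epi 8 (edgeR adjusted p = 0.459) and −0.68 in Epi 24. LHCB1.1 had 6331, 8342 and 6848 CPM in Epi 8 and 8667, 7754 and 8324 CPM in Epi 24, against 9179.6, 8864 and 9949.6 CPM in WT. Both epi-lines were below every WT plant, at −0.38 in Epi 8 and −0.18 in Epi 24 (edgeR adjusted p = 0.612 and 0.881). In Epi 24 floral stem PSAO at 0.30 had the second smallest p after LHCB4.3. For Epi 8 over Epi 24, LHCB4.2 had 1152, 1361 and 1822 CPM in Epi 8, against 1903, 2342 and 2436 CPM in Epi 24, with no overlap and a log2 fold change of −0.62 (edgeR adjusted p = 0.267). LHCA3 followed at −0.48.

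The summed level of the wall markers in floral stem was 3064, 1703 and 2747 CPM in Epi 8 and 6561, 6149 and 7004 CPM in Epi 24, against 2636, 3828 and 8790.1 CPM in WT. The WT plants spanned all Epi 24 sums and overlapped with Epi 8, and 0 of 6 genes were above 0 in Epi 8 and 6 of 6 in Epi 24, none of them called. Among pathway lists 14 of 15 Calvin cycle genes were below 0 in Epi 8. No list gene was called in any floral stem comparison by edgeR. Of 10 clock genes, 9 had an unadjusted edgeR p under 0.05 for Epi 8 over WT, against 8.82% of all genes. Epi 24 over WT had 1 (6.11%) and Epi 8 over Epi 24 had 5 (16.8%). For the 6 wall markers the counts were 4, 0 and 6 in that order. LHY had 46.0, 42.9 and 53.0 CPM in Epi 8 floral stem, against 21.1, 14.6 and 16.1 CPM in WT. TOC1 had 23.5, 25.3 and 33.6 CPM, against 60.2, 107 and 115 CPM. The part of wall tissue and clock phase in the values of the photosynthesis genes was not tested.

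In root 47 of the 51 genes passed the filter on low counts. LHCA6, LHCB1.4, RBCS1B and RBCS2B did not, and a count of 0 in a root library allows up to 0.1497 to 0.166 CPM. None of the 47 was called in Epi 8 root (0.0% of all genes) or Epi 24 root (0.0%) against WT, or for Epi 8 over Epi 24 (0.0192%), by the quasi-likelihood test. In that order the likelihood ratio test called 0.14%, 0.197% and 0.64% of all genes and DESeq2 0.109%, 0.0603% and 0.567%, again with no member. In the same order 1, 2 and 0 members had an unadjusted p under 0.05, against 5.6%, 6.91% and 11.4% of all genes (3.19%, 3.08% and 6.59% lower). The 0.0192% of the quasi-likelihood test were 0.00481% called higher and 0.0144% called lower. Plants did not overlap with WT for 2 lower genes in Epi 8 (6.51% of all genes lower, 6.77% higher) and for 4 lower genes in Epi 24 (5.46% lower, 5.39% higher). In Epi 8 root 29 of 47 were below 0 with a median of −0.10, and in Epi 24 root 40 of 47 with a median of −0.20. For Epi 8 over Epi 24, 35 of 47 were above 0 with a median of 0.14. Of all tested genes 50.1% were below 0 in Epi 8 root, 49.4% in Epi 24 root and 50.3% for Epi 8 over Epi 24. The directions for Epi 8 over WT and for Epi 8 over Epi 24 turned with single plants. That of Epi 24 over WT did not, but its median shrank to −0.0183 without Epi 24 root plant 2. With 1 plant left out, 27 to 44 genes were below 0 for Epi 24 over WT. Without Epi 8 root plant 3 only 19 were below 0 in Epi 8 root and the median was 0.0353. For Epi 8 over Epi 24 the median was −0.0805 without Epi 8 root plant 2 and −0.0250 without Epi 24 root plant 2.

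Single root plants were low across most of the set. Epi 24 root plant 2 was the lowest of its group for 42 of 47 genes with at least 10 counts, by a median of −0.44 on the log2 scale. Epi 8 root plant 3 was lowest for 41 of 48 and WT root plant 1 for 37 of 48. The summed level of the root markers was 721, 934 and 655 CPM in Epi 24 root and 625, 486 and 574 CPM in Epi 8 root, against 772, 480.4 and 604 CPM in WT root. It was the highest of its group in Epi 24 plant 2 and WT plant 1, but Epi 8 plant 3 stood between the other Epi 8 plants. The part of the root markers in the low photosynthesis values was not tested.

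LHCB2.1 had 9.02, 9.07 and 5.49 CPM in Epi 8 root and 10.7, 5.91 and 10.3 CPM in Epi 24 root, against 9.51, 12.4 and 15.1 CPM in WT root. Epi 8 was below all WT plants, at a log2 fold change of −0.65 (edgeR adjusted p = 0.880). LHCB2.2 followed at −1.21 on few counts, with 1.71, 1.89 and 1.45 CPM in Epi 8 root, against 5.45, 1.97 and 4.296 CPM in WT root. PSBS, the sensor of energy-dependent quenching, had 11.2, 8.94 and 10.1 CPM in Epi 24 root, against 14.4, 11.4 and 25.6 CPM in WT root, with no overlap and −0.76 (edgeR adjusted p = 0.673). PSBY was next in Epi 24 root at −0.44. For Epi 8 over Epi 24, LHCB1.5 at −0.40 and PSBW at 0.42 had the smallest p (edgeR adjusted p = 0.444 for LHCB1.5).

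**Figure D5:**
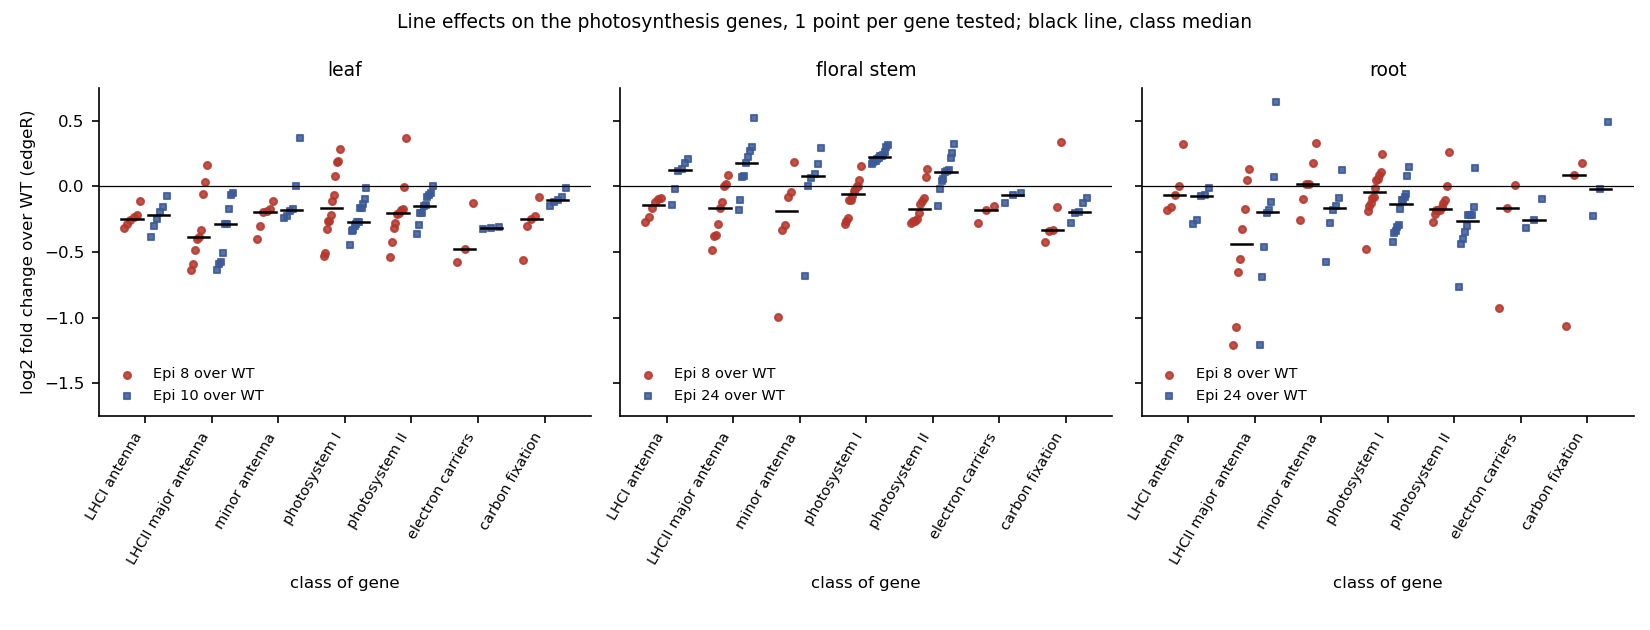
Log2 fold change over WT (y axis) in leaf, floral stem and root by class (x axis), with 1 point per gene for Epi 8 and for Epi 10 or Epi 24, and the class median as a black line. Nearly all leaf points lie below 0 (44 of 51 in Epi 8 and 48 of 51 in Epi 10), the floral stem points of Epi 8 lie mostly below and those of Epi 24 mostly above 0, and no point in the plot was called.

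Whether a line effect differed between organs was tested in 1 edgeR fit of all 27 libraries. No member was called. For Epi 8 in floral stem minus root 0.316% of all genes were called, and 3 members had an unadjusted p under 0.05 (10.5% of all genes), led by LHCB4.3 with a difference of −1.38 (adjusted p = 0.331). For Epi 8 in leaf minus root 0.0% of all genes were called, and 3 members had such a p (8.05%), led by PSBW at −0.70 (adjusted p = 0.552). For Epi 8 in leaf minus floral stem 0.29% were called and 0 members had such a p (12.4%), and RBCS1B was closest at −0.87 (adjusted p = 0.415). For Epi 24 in floral stem minus root 0.0% were called and 5 members had such a p (8.76%), led by LHCB2.3 at 1.51 (adjusted p = 0.351).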

How the data were processed

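For each plant the authors deposited raw counts per gene, not normalized, from uniquely mapped read pairs (TAIR10, STAR 2.7.3a, after trimming). Names, exon lengths and sequences came from the RefSeq annotation of TAIR10.1, whose gene coordinates were equal for 1873 of 1873 genes compared. Genes were filtered by filterByExpr, scaled by TMM and tested with edgeR 4.0.16 (R 4.3.3) by the quasi-likelihood test over all tested genes, one fit per organ of 9 libraries, one of the 9 WT libraries and one of all 27. SE is the absolute log2 fold change divided by the square root of the F statistic. The steps were tested on simulated data. TPM used counts over exon length. Members, gene lists and tests were chosen with earlier results of these data known. The text names the members with the smallest p of each line comparison, the extremes of each organ comparison and the gene families. Alternatives were RLE factors, DESeq2 1.42.0, edgeR's likelihood ratio test, no filter, no fold limit, a replicate block, only the 6 libraries compared, and each plant left out. The labels call the plants biological replicates.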

Additional observations from a re-analysis of the deposited data

How the results depend on the processing

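All 51 members stayed called between root and each green organ, and the absence of calls in floral stem and root line comparisons was unchanged under all alternatives run. In Epi 8 leaf against WT leaf the likelihood ratio test and DESeq2 called 6 members each, PSAO, PETE2, PSBX, RBCS1B, LHCB3 and PSAN (3.18% and 2.89% of all genes). Leaving out 1 plant gave 0 to 2 calls there, with PSBX (adjusted p = 0.0433) and RBCS1B (0.0377) without Epi 8 leaf plant 3 (0.742% of all genes) and PSAO (0.0480) without WT leaf plant 3 (0.84%). Over all genes 191 were called there, against 638 and 710 by those tests, 42 with the replicate block, 43 with only the 6 libraries and 0 to 170 with 1 plant left out. In Epi 10 leaf both tests called 1 member, LHCB2.2 (0.0848% and 0.0854% of all genes). The count of members below 0 with 1 plant left out ranged over 19 to 41 for Epi 8 root and 7 to 27 for Epi 8 over Epi 24 root (7 without Epi 24 plant 1, 26 without Epi 8 plant 2, 27 without Epi 24 plant 2), and the medians over −0.30 (−0.305) to 0.04 (0.0353) for Epi 8 root and −0.08 (−0.0805) to 0.29 (0.293) for Epi 8 over Epi 24 root, with −0.02 (−0.0250) without Epi 24 plant 2. Without the 10 genes with the highest counts the members held 6.15% in Epi 8 leaf, 6.01% in Epi 10 leaf, 6.46% in WT leaf, 6.73% in Epi 8 floral stem, 7.60% in Epi 24 floral stem and 6.90% in WT floral stem, and without the 10 highest genes per length the WT floral stem median was 2872 TPM. The replicate block left 44 members below 0 in Epi 8 leaf with a median of −0.23. It could hardly have changed these values, because every group holds the same 3 plant numbers, so they are no check on direction. Plant numbers are shared between groups, but in no comparison did all 3 same-numbered pairs correlate over 0.1. In Epi 8 leaf against WT leaf those pairs correlated at 0.213, 0.0249 and 0.213, against a mean of −0.0703 for other pairs. Each WT leaf plant correlated best with the Epi 8 plant of its number, which was so in no other comparison. A pairing of plants by number is therefore not excluded there. Counting how many members lay below 0, with its leave-one-out values, was chosen after seeing the data. The depth of root libraries limits the rare members there.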
